A study of Mus musculus with 56 samples.

Results

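The transcripts described here encode peptides, receptors and enzymes through which the brain sets sleep and wakefulness. They were chosen by name and role, with earlier results of these data known, and the choice used no threshold on a measured value. All 10 listed genes were found among the 17564 genes measured, and all 10 passed the filter on low values. They are the peptides Gal and Tac1, the orexin receptors Hcrtr1 and Hcrtr2, the histamine receptors Hrh1 and Hrh3, the adenosine receptors Adora1 and Adora2a, and the enzymes Adk and Ptgds. The RNA came from the anterior hypothalamus of 56 female C57BL/6J mice that were 9 weeks old. After a week of free feeding, 28 mice could eat only while the lights were on (daytime-restricted feeding, DRF) and 28 only while they were off (nighttime-restricted feeding, NRF), in each case for 7 days. Collection every 4 h from zeitgeber time 0 (ZT0, lights on) to ZT24 gave 7 time points with 4 mice per regimen, each mouse sampled once, so ZT24 and ZT0 were different animals. There was no freely fed group, and only females were used. The dissected block holds several nuclei and cell types, so a change in the number of cells of a type and a change in RNA per cell cannot be told apart.

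Wakefulness is promoted by orexin (hypocretin) neurons of the lateral hypothalamus and by histamine neurons of the tuberomammillary nucleus, both of which project widely through the hypothalamus. Galanin neurons of the preoptic area, within the anterior hypothalamus, are active in sleep and inhibit these arousal cells. Adenosine accumulates during waking and favours sleep through its receptors, adenosine kinase clears it, and prostaglandin D2, made in the leptomeninges, choroid plexus and oligodendrocytes, also favours sleep.

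Levels are given as normalised read counts scaled to a common library size (CPM), recovered from the deposited values, and differences as log2(CPM + 1). Normalised library sizes were 29591265 to 34493348 reads, with medians of 30783115 in DRF and 30808274 in NRF. The libraries of DRF ZT16 replicates 3 and 4 stood apart from the others. Their deviation from the mean of all mice rose with GC content by 0.36 and 0.53 log2 units per 10 percentage points, 4.93 and 7.11 robust standard deviations from the median of all libraries, and the next highest library lay 2.31 from it. In 3 further mice, chosen by eye after seeing the data, a marker sum stood apart. Leptomeningeal markers summed to 264 CPM in DRF ZT0 replicate 3 and 336 CPM in NRF ZT20 replicate 4, against medians of 55.0 in DRF and 56.1 in NRF. Markers of the lateral and posterior hypothalamus summed to 113 CPM in DRF ZT20 replicate 2, against a DRF median of 674. Striatal markers were above 2 times the median of their regimen in 4 more mice, DRF ZT12 replicates 3 (895 CPM) and 4 (1213 CPM), DRF ZT8 replicate 1 (811 CPM) and NRF ZT8 replicate 2 (763 CPM), against medians of 399 CPM in DRF and 377 CPM in NRF. Hypothalamic markers were present in every mouse. The 8 markers of the suprachiasmatic nucleus summed to 196 to 426 CPM in DRF and 231 to 449 CPM in NRF.

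Per kilobase of transcript, Ptgds was the most abundant member in every mouse, with a median of 159 CPM per kb. Gal followed with a median of 46.2 CPM per kb and Hrh3 with 28.2, and their ranges over mice overlapped. Adora1 (18.3) and Tac1 (15.96) also overlapped. Adk (6.35) and Hrh1 (5.74) formed the next overlapping pair. The orexin receptors were low, with medians of 2.67 CPM per kb for Hcrtr1 and 1.72 for Hcrtr2, and their ranges overlapped. Adora2a had the lowest median, 0.80 CPM per kb, and the widest range over mice as a fold, 49.0-fold from 0.29 to 14.2 CPM per kb. The genes lie, on GRCm38.p6, at chr19:3409915-3414544 (Gal), chr6:7555061-7562978 (Tac1), chr4:130130217-130139594 (Hcrtr1), chr9:76225880-76323623 (Hcrtr2), chr6:114397936-114483298 (Hrh1), chr2:180099465-180104484 (Hrh3), chr1:134199215-134235457 (Adora1), chr10:75316877-75334792 (Adora2a), chr14:21052574-21448569 (Adk) and chr2:25466709-25470110 (Ptgds). The level of Adora1 rests on an annotated transcript length and may be off by a constant, so its place in this order is not firm.

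Promoter windows of 4 members are printed here, because Hcrtr2 and Hrh1 peaked together in NRF and Adora1 was rhythmic in NRF, whereas Tac1 was called in neither regimen. Each is the 250 bases before an annotated start, from RefSeq on GRCm38.p6, 5′ to 3′ on the strand of the gene. Capitals mark matches on either strand to the E-box CACGTG and its variant CACGTT, which bind the CLOCK and BMAL1 clock proteins, and to TGACG, part of the cAMP response element. The Hcrtr2 window is chr9:76323624-76323873 on the minus strand, the window of the first of 4 Hrh1 starts is chr6:114397686-114397935 on the plus strand, that of the first of 2 Adora1 starts is chr1:134235458-134235707 on the minus strand, and that of Tac1 is chr6:7554811-7555060 on the plus strand.
Hcrtr2: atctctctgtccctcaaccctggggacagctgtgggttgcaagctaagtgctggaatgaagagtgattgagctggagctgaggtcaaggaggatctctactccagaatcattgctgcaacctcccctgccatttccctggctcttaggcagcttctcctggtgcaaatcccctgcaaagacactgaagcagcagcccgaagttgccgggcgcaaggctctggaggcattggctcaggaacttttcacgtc
Hrh1: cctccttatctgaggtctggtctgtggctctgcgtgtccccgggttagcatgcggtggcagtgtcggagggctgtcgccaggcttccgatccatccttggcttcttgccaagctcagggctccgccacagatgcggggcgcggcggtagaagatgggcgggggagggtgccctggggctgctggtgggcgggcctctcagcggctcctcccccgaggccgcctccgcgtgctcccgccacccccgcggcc
Adora1: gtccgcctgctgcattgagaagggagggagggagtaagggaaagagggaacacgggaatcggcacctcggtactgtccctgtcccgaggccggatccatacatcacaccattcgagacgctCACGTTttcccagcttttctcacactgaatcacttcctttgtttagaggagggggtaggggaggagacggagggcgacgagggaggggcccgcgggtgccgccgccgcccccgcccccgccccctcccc
Tac1: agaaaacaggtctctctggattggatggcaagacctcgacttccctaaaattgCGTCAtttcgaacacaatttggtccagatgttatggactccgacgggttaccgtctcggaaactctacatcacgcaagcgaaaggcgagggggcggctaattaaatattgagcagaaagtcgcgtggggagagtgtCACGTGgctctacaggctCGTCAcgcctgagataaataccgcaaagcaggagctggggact
The E-box occurred in the Tac1 window, 61 bases before the start, and its variant in the Adora1 window, 129 bases before the start. Among all 32851 annotated windows of this length, 6.02% held the E-box, 3.85% the variant and 17.8% TGACG. The rhythmic Hcrtr2 and Hrh1 had none of these in the windows shown. Hrh3 was also called rhythmic in NRF, and its 1 window, not printed, held none of them either. The full response element TGACGTCA, found in 1.55% of windows, was in none of the 16 windows of the 9 members that had one, and the D-box TTATGTAA, found in 0.819%, was in the Ptgds window alone. These are matches of letters and say nothing about binding.

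Rhythm was tested within each regimen, to ask which transcripts cycle over the day when food comes at night or by day. In NRF, 4 of the 10 members were called rhythmic at an adjusted p-value under 0.05 from JTK_CYCLE and the Lomb-Scargle periodogram: Hrh1, Hcrtr2, Adora1 and Hrh3. Over all transcripts the same rule called 27.8% in NRF, so the members' share was not far from the background. Leaving out 1 replicate number at a time, 7 mice per regimen, left 0 to 3 members called, with 0 without replicate 1 and 0 without replicate 2. In DRF it called 0 of the 10 members, where 0.813% of all transcripts were called, and 0 members had an unadjusted p-value under 0.05. Time as a 7-level factor in limma, which assumes no shape, called 6 members in NRF, where the background was 43.9%, and Hrh1 alone in DRF, where the background was 9.94%. The median amplitude of a 24-h cosine, the distance from mean to peak, was 0.14 log2 units in NRF and 0.11 in DRF over the members, against 0.07 and 0.06 over all transcripts.

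**Figure D1:**
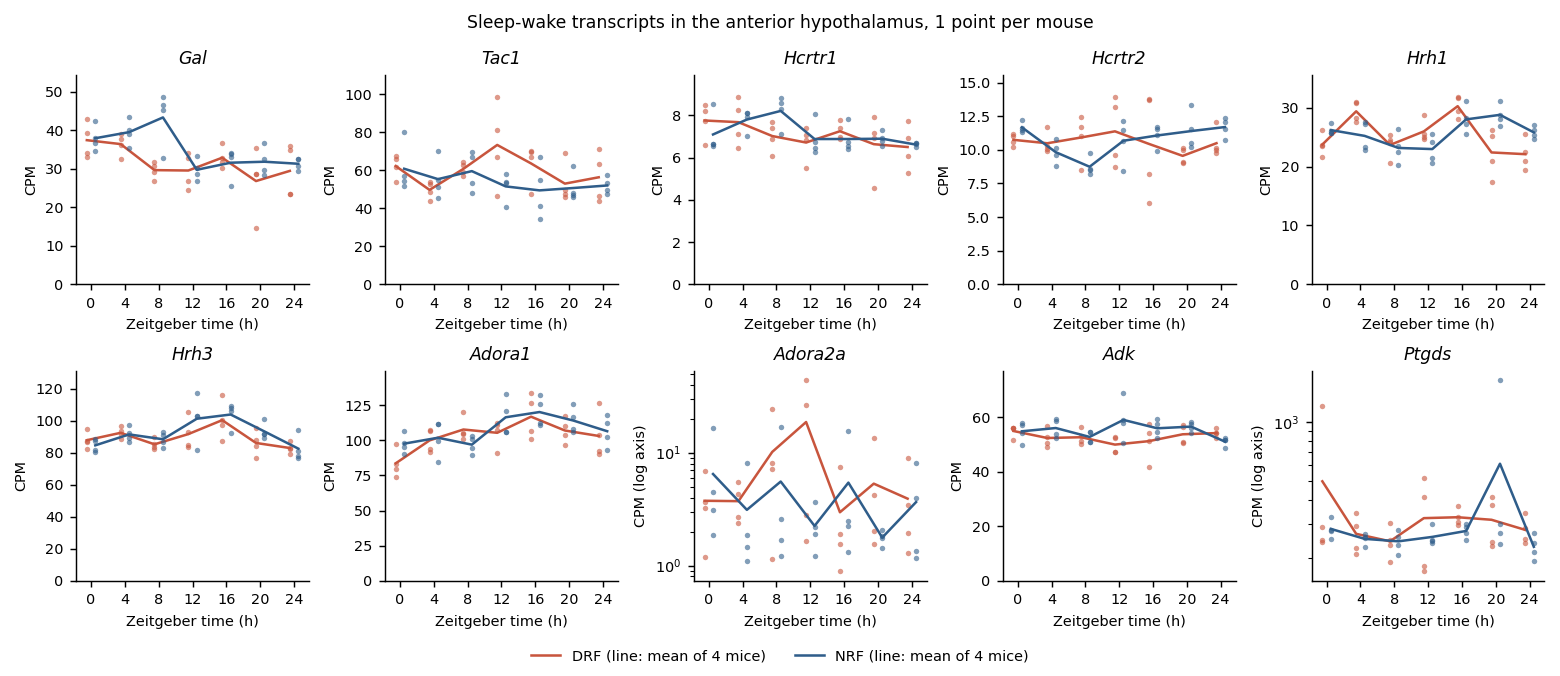
CPM of each of the 10 transcripts (vertical axes, logarithmic for Adora2a and Ptgds) against zeitgeber time in hours, with 1 point per mouse and lines through the means of 4 mice, DRF in red and NRF in blue. Hrh1 was high at both ZT4 and ZT16 in DRF, and single mice reached 1211 and 1643 CPM of Ptgds.

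Hrh1 encodes the H1 receptor, the excitatory receptor through which histamine promotes waking and which sedating antihistamines block. It was the only member whose daily rhythm was called different between the regimens. In NRF it was 27.0 to 31.2 CPM in the 4 mice of ZT20 and 20.7 to 25.6 CPM in those of ZT12, with no overlap. The NRF rhythm peaked at ZT19.9 with an amplitude of 0.15 log2 units (adjusted p = 0.0047, JTK_CYCLE and Lomb-Scargle). In DRF it was high at both ZT4 (30.9, 30.8, 28.2 and 27.6 CPM) and ZT16 (28.2, 29.5, 31.6 and 31.8 CPM). All other DRF mice but 1 of ZT12 (28.7 CPM) lay below those mice, at 17.3 to 26.2 CPM. The ZT16 values of 31.6 and 31.8 CPM were in replicates 3 and 4, the libraries that stood apart in GC trend. This DRF profile with 2 rises was not called as a 24-h rhythm (JTK_CYCLE and Lomb-Scargle, adjusted p = 1), and its fitted cosine had an amplitude of 0.098. With those libraries included, the change over time in DRF passed the limma test with time as a factor (adjusted p = 0.0099). The rhythm differed between the regimens (limma, adjusted p = 0.035), where 11% of all transcripts were called, and this call was lost in 7 of 16 alternative settings.

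At ZT20, Hrh1 was 25.2, 17.3, 20.9 and 26.2 CPM in DRF and 31.2, 28.2, 28.9 and 27.0 CPM in NRF. All 4 DRF mice lay below all 4 NRF mice. The difference, DRF minus NRF, was -0.36 ± 0.09 log2 units (standard error, n = 4 and 4; adjusted p = 0.029, limma), the only one of 70 comparisons of members at single time points to be called. Over all transcripts the share called was 4.48% at ZT0, 3.92% at ZT4, 0.174% at ZT8, 1.5% at ZT12, 20.2% at ZT16, 1.13% at ZT20 and 0.274% at ZT24. The lowest of these DRF mice was replicate 2, whose lateral and posterior hypothalamic markers were also lowest. Without that mouse and the 2 of high leptomeningeal markers, the difference at ZT20 was -0.28 (adjusted p = 0.16) and the adjusted p of the rhythm difference was 0.052, neither past the threshold. The ZT20 call was also lost without replicate 1, 2 or 3 of every group, and was kept without replicate 4. Without replicate 2 the difference was -0.26 (limma, adjusted p = 0.23). Without the 2 DRF ZT16 libraries that stood apart, the rhythm difference had an adjusted p of 0.016, and without the 4 mice of highest striatal markers 0.029. Across the 56 mice Hrh1 rose with paraventricular and supraoptic markers (r = 0.39, with 0.57 in DRF and 0.08 in NRF). It rose with suprachiasmatic (r = 0.35, 0.49 in DRF, 0.07 in NRF) and lateral and posterior markers (r = 0.32, 0.51 in DRF, -0.19 in NRF). It fell as neuronal (r = -0.41, -0.56 in DRF, -0.28 in NRF) and astrocyte markers (r = -0.37, -0.56 in DRF, 0.08 in NRF) rose. Each rho was weaker, and the part of these lists was not tested. Over the 14 group means, the profiles most like that of Hrh1 were those of Pex5, Cys1 and Chtf8, with Pearson r of 0.95 to 0.96. Over the deviations of the 56 mice from their group means they were Fbxo10, Cd99l2 and Ampd2, with r of 0.75 to 0.81.

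Hrh3 encodes the H3 receptor, the autoreceptor by which histamine neurons limit their own release. It was 81.8 to 117 CPM at ZT12 and 92.5 to 109 CPM at ZT16 in NRF, against 76.4 to 94.1 CPM at ZT24, so that the groups of ZT16 and ZT24 overlapped in 1 mouse. The NRF rhythm peaked at ZT14.2 with an amplitude of 0.14 (adjusted p = 0.022). Summed thalamic markers moved with Hrh3 in NRF, with medians of 572 CPM at ZT12 and 550 CPM at ZT16 against 396 CPM at ZT8 and 408 CPM at ZT24, and their part in the rhythm was not tested. Over the 56 mice r was 0.48 and rho 0.43 (permutation p = 9e-05 and 0.0011, adjusted p = 0.00082 and 0.0064), with r of 0.37 without the 2 most extreme mice, 0.80 in NRF and -0.13 in DRF. Hrh3 fell as astrocyte markers rose (r = -0.50, with -0.76 in DRF and -0.22 in NRF). With choroid plexus markers r was -0.44 (-0.29 in DRF, -0.59 in NRF), and with oligodendrocyte markers 0.35 (0.03 in DRF, 0.64 in NRF). The part of these lists was not tested either. The DRF cosine peaked at ZT14.2 as well, with an amplitude of 0.06 (adjusted p = 1), but at ZT11.4 with an amplitude of 0.032 without the ZT16 libraries that stood apart. The rhythm was not shown to differ (limma, adjusted p = 0.43). Its highest DRF value, 116 CPM, was in ZT16 replicate 4, one of the libraries that stood apart. Nxpe3, Irx1 and Slc3a2 were most like it over group means (r = 0.89 to 0.90), and Cyp46a1, Slc25a22 and Nans over mice (r = 0.77 to 0.78).

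Among the other genes of the histamine pathway, Hdc, the enzyme that makes histamine, ranged from 3.95 to 63.7 CPM over mice. Its level at ZT16 was 23.8 to 63.7 CPM in DRF and 5.19 to 43.3 CPM in NRF, and the difference of 1.87 log2 units passed the test (limma, adjusted p = 0.035), but the groups overlapped. Hnmt, which inactivates histamine, was 10.6 to 26.3 CPM in DRF and 23.5 to 28.1 CPM in NRF at that time, a difference of -0.45 (adjusted p = 0.010). Without the 2 libraries that stood apart, neither passed the test, with differences of 2.11 for Hdc (adjusted p = 0.29) and 0.0055 for Hnmt (adjusted p = 0.99). Maob, which degrades the methylated product, was lower in DRF over the day by a log2 difference of -0.17 (adjusted p = 0.043), but not past the threshold without those libraries (-0.14, adjusted p = 0.089). Hrh2, a further histamine receptor, was called in no comparison.

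Hcrtr2 encodes the orexin receptor whose loss causes narcolepsy in dogs. It was lowest at ZT8 in NRF, with 9.74, 8.47, 8.22 and 8.54 CPM, and 10.7 to 12.4 CPM at ZT24, with no overlap. Means were 8.74 ± 0.68 CPM at ZT8 and 11.7 ± 0.73 CPM at ZT24 (SD, n = 4). The NRF rhythm peaked at ZT20.1 with an amplitude of 0.17 (adjusted p = 0.005). In DRF the ZT16 mice split into 13.7 and 13.8 CPM in replicates 1 and 2 and 8.23 and 6.06 CPM in replicates 3 and 4, the libraries that stood apart in GC trend. The adjusted p for a rhythm difference was 0.063 with them and 0.041 without them, and 0.024 without the 4 mice of highest striatal markers. The DRF amplitude was 0.07 with them and 0.08 without them, and its peak moved from ZT7.3 to ZT13.0. Smoc2, Parg and Cenpj were most like Hcrtr2 over group means (r = 0.84 to 0.89), and Pwwp3b, Mblac2 and Lrch2 over mice (r = 0.82 to 0.85).

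Hcrtr1 encodes the orexin receptor that the locus coeruleus uses. It was highest at ZT8 in NRF, with 8.61, 7.10, 8.32 and 8.83 CPM, and 6.49 to 6.68 CPM at ZT24, with no overlap. Its rhythm was not called in NRF by the combined test (adjusted p = 1), whereas the 24-h cosine in limma gave an adjusted p of 0.030 with a peak at ZT6.8. Hcrtr1 varied with the paraventricular and supraoptic markers over the 56 mice (r = 0.60, rho = 0.57, permutation p = 1e-05 and 2e-05, adjusted p = 0.00013 and 0.00026). The r was 0.49 without the 2 most extreme mice, 0.58 in DRF and 0.67 in NRF. In NRF these markers had medians of 784 CPM at ZT8 and 585 CPM at ZT24. With the lateral and posterior markers r was 0.62 (permutation p = 1e-05, adjusted p = 0.00013) and rho 0.41 (permutation p = 0.0021, adjusted p = 0.011), and r was 0.40 without the 2 most extreme mice, 0.74 in DRF and 0.33 in NRF. The part of either list was not tested. In NRF the 2 orexin receptors had fitted peaks in the light phase and in the dark phase. Their ligand gene Hcrt, made in the lateral hypothalamus, ranged from 18.9 to 343 CPM over the mice and was called in no comparison. Blcap, Minar2 and Saraf were most like Hcrtr1 over group means (r = 0.93 to 0.95), and Hpcal1, Maged2 and Gnas over mice (r = 0.79 to 0.82).

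**Figure D2:**
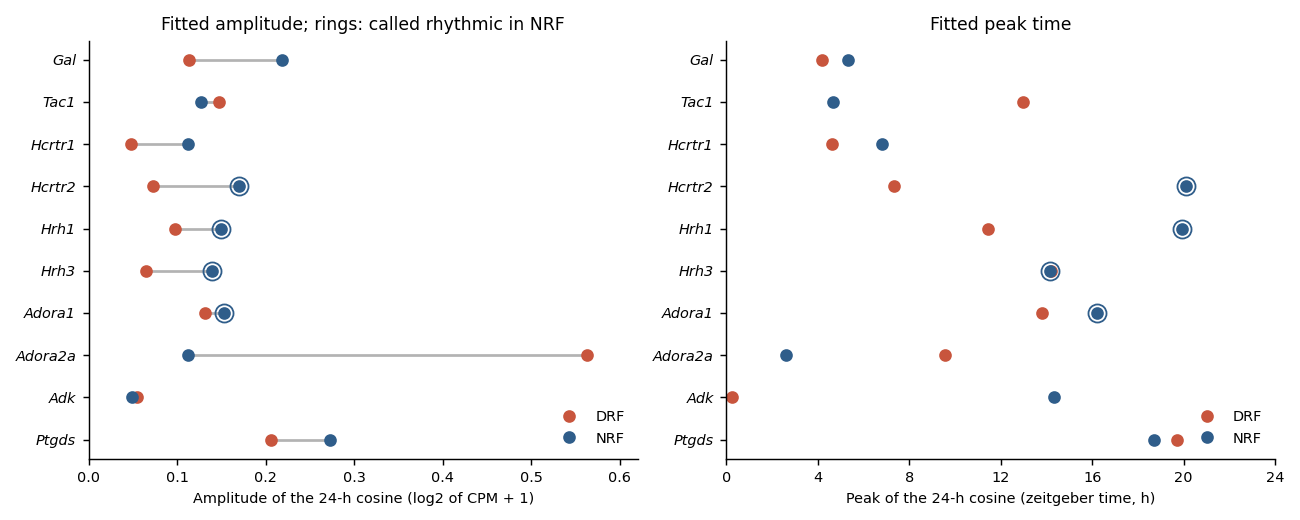
Amplitude (left, log2 units of CPM + 1) and peak time (right, zeitgeber time in hours) of a 24-h cosine fitted to each transcript in DRF (red) and NRF (blue), with rings around the 4 transcripts called rhythmic in NRF. Hcrtr2 and Hrh1 peaked at ZT20.1 and ZT19.9 in NRF, Hrh3 and Adora1 at ZT14.2 and ZT16.2.

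Adora1 encodes the inhibitory A1 receptor, through which adenosine quiets arousal neurons. In NRF it was 106 to 133 CPM at ZT12 and 111 to 132 CPM at ZT16, and 89.3 to 103 CPM at ZT8, with no overlap. The NRF rhythm peaked at ZT16.2 with an amplitude of 0.15 (adjusted p = 0.017). In DRF the 3 lowest values, 74.0, 79.8 and 83.1 CPM, were all at ZT0, where the remaining mouse had 97.7 CPM, and the ZT16 mice had 100.8 to 133 CPM. The low values did not recur at ZT24, the same time of day, where the DRF mice had 90.2 to 126 CPM. ZT24 minus ZT0 was 0.29 log2 units. The DRF cosine had an amplitude of 0.13 and a peak at ZT13.8 (adjusted p = 1), and without the ZT16 libraries that stood apart the amplitude was 0.095. The rhythm was not shown to differ between regimens (limma, adjusted p = 0.50).

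Adora1 moved with myelin markers and with several other marker lists across mice. Its Pearson r with the summed oligodendrocyte markers was 0.70 and its Spearman rho 0.66 over 56 mice (permutation p = 1e-05 for each, the smallest that 100000 draws can give; adjusted p = 0.00013 and 0.00016 over the 140 pairs of member and marker list). Leaving out the 2 mice with the most extreme marker sums gave r = 0.61, and r was 0.72 within DRF and 0.64 within NRF. Adora1 also rose with the 4 thalamic markers (r = 0.67, rho = 0.68), with r of 0.46 in DRF and 0.86 in NRF. With neuronal markers r was 0.56 and rho 0.58, with r of 0.39 in DRF and 0.75 in NRF. It also rose with microglial (r = 0.50) and cortical markers (r = 0.45). It fell as paraventricular and supraoptic (r = -0.47), suprachiasmatic (r = -0.45), preoptic (r = -0.45), choroid plexus (r = -0.45) and lateral and posterior markers (r = -0.35) rose. The 6 oligodendrocyte markers summed to 4082 to 8350 CPM in DRF and 5331 to 8768 CPM in NRF. In NRF 3 of the 6 oligodendrocyte markers and 0 of the 4 thalamic ones were themselves called rhythmic, where the background was 27.8%. The NRF medians of both sums were higher at ZT12 and ZT16 than at ZT8. They were 7933, 7193 and 5904 CPM for oligodendrocyte markers and 572, 550 and 396 CPM for thalamic markers at ZT12, ZT16 and ZT8. Neuronal markers had NRF medians of 3712, 3773 and 3443 CPM at ZT12, ZT16 and ZT8. The part of any of these lists in the Adora1 rhythm was not tested. Over group means, Mapk10, Grm4 and Rph3a were most like Adora1 (r = 0.89 to 0.93), and over mice Grm4, Mgat5b and Syt7 (r = 0.88 to 0.91).

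Adora2a encodes the other main adenosine receptor of the brain, which is densest in striatal neurons and which caffeine blocks. Its level ranged from 0.89 to 43.6 CPM, and single mice set the group means. At ZT12 it was 2.80, 1.64, 26.7 and 43.6 CPM in DRF and 3.66, 1.91, 2.18 and 1.23 CPM in NRF. The difference was 1.75 ± 0.74 log2 units (adjusted p = 0.21) and was not called, whereas without replicate 2 of every group it was 2.38 (adjusted p = 0.033). That difference was not called without replicate 1, 3 or 4. Without the 4 mice of highest striatal markers it was 0.02 ± 0.72 (adjusted p = 0.999). Over the 56 mice Adora2a followed the other 7 markers of the striatum, which borders the dissected block, with r = 0.97 and rho = 0.91 (permutation p = 1e-05 for each, adjusted p = 0.00013 and 0.00016). Without the 2 most extreme mice r was 0.97, and within regimens it was 0.98 in DRF and 0.96 in NRF. Those markers summed to 332 to 1213 CPM in DRF and 331 to 763 CPM in NRF, and none was at 0 in any mouse. The transcripts most like it over mice were Ppp1r1b, Gng7 and Kcnh3 (r = 0.97 to 0.99), of which Ppp1r1b is in that list, and over group means Kcnh3, Gng7 and Chrm4 (r = 0.96 to 0.98).

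Adk encodes adenosine kinase, which removes adenosine by phosphorylating it. It was 41.6 to 68.7 CPM over all mice, with amplitudes of 0.05 in both regimens. At ZT12 it was 52.7, 52.5, 47.2 and 47.3 CPM in DRF and 58.8, 50.5, 68.7 and 57.9 CPM in NRF, so 1 NRF mouse lay within the DRF range. The difference was -0.23 ± 0.07 (adjusted p = 0.071). It passed the test without the 2 ZT16 libraries that stood apart (adjusted p = 0.023) and without replicate 2 of every group (-0.32, adjusted p = 0.014). It did not pass without replicate 1, 3 or 4. The 2 lowest DRF mice at ZT12 were those with the highest striatal marker sums, 895 and 1213 CPM, and without the 4 mice of highest striatal markers the difference was -0.15 ± 0.09 (adjusted p = 0.68). Creg1, Gimap6 and Tmem14a were most like Adk over group means (r = 0.83 to 0.86), and Glo1, Scp2 and Dstn over mice (r = 0.83 to 0.87).

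Among the other adenosine genes, Ada encodes the deaminase that clears adenosine. It was 0.93 to 1.47 CPM at ZT0 in DRF and 0.51 to 0.67 CPM in NRF, with no overlap, a difference of 0.44 log2 units (limma, adjusted p = 0.0050). At ZT24, the same time of day, Ada was 0.76 to 0.88 CPM in DRF and 0.56 to 0.70 CPM in NRF. The groups did not overlap there either, but the difference was not called. Its rhythm was called in NRF (adjusted p = 0.0044), with a peak at ZT9.9, and differed between regimens (adjusted p = 0.0099). Adora2b, Slc29a1 and Pnp, a receptor, a transporter and a purine-degrading enzyme, were lower in DRF over the day, by log2 differences of -0.13 (adjusted p = 0.021), -0.13 (adjusted p = 0.044) and -0.09 (adjusted p = 0.0052). The Slc29a1 difference did not pass without the 4 mice of highest striatal markers (-0.12). At ZT20 Adora2b was 2.65 to 3.44 CPM in DRF and 4.05 to 4.63 CPM in NRF (adjusted p = 0.033). The nucleoside transporter Slc29a3 was rhythmic in NRF (adjusted p = 0.00042) and peaked at ZT17.5. The ectonucleotidase Entpd3 was rhythmic in NRF (adjusted p = 0.031), a call kept in 3 of 11 alternative settings. The transporter Slc29a2 was higher in DRF at ZT4 by 0.26 (adjusted p = 0.040), and Pnp lower at ZT24 by a difference of -0.25 (adjusted p = 0.040). Pnp was not called at ZT0, with 23.8 to 26.5 CPM in DRF and 25.3 to 28.2 CPM in NRF. At ZT16 Entpd3 (0.26, adjusted p = 0.022) and the deaminase Ampd2 (0.20, adjusted p = 0.0497) were called higher in DRF. Neither was called without the 2 libraries that stood apart, with differences of 0.20 for Entpd3 (adjusted p = 0.44) and 0.11 for Ampd2 (adjusted p = 0.67).

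Gal encodes galanin, the inhibitory peptide of sleep-active preoptic neurons. In NRF it was highest at ZT8, with 45.3, 32.8, 48.6 and 46.6 CPM, and 26.9 to 33.3 CPM at ZT12, so that 1 ZT8 mouse lay within the ZT12 range. In DRF the ZT8 mice had 26.8, 30.8, 29.2 and 31.8 CPM, all below every NRF mouse of that time. Preoptic markers other than Gal parted likewise at ZT8, at 65.2 to 82.1 CPM in DRF and 84.2 to 107.5 CPM in NRF. Paraventricular and supraoptic markers had medians of 617 CPM in DRF and 784 CPM in NRF at that time. The part of these markers in the Gal difference was not tested. The Gal difference at ZT8 was -0.52 ± 0.15 log2 units (adjusted p = 0.14) and was not called. It was -0.66 (adjusted p = 0.020) without replicate 2 of every group, and it also passed without the 3 mice whose marker sums stood apart. It did not pass without replicate 1, 3 or 4. Gal was lower in DRF over the day by a difference of -0.15 ± 0.06, with a 95% confidence interval of -0.26 to -0.03, and an adjusted p of 0.089. The NRF rhythm was not called by the combined test (adjusted p = 0.10), whereas the 24-h cosine gave an adjusted p of 0.0047, an amplitude of 0.22 and a peak at ZT5.3. In NRF Gal was 34.5 to 42.4 CPM at ZT0 and 29.3 to 32.7 CPM at ZT24, with no overlap at the same time of day. ZT24 minus ZT0 was -0.27 log2 units, which a 24-h cosine does not describe.

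Gal varied with the markers of the paraventricular and supraoptic nuclei across the 56 mice (r = 0.76, rho = 0.73, permutation p = 1e-05 for each, adjusted p = 0.00013 and 0.00016). The r was 0.68 without the 2 most extreme mice, 0.86 in DRF and 0.76 in NRF. The 6 markers summed to 375 to 942 CPM in DRF and 421 to 934 CPM in NRF, none was at 0 in any mouse, and their part in the Gal values was not tested. Gal also rose with suprachiasmatic (r = 0.66), preoptic (r = 0.65) and lateral and posterior markers (r = 0.60). Without the 2 most extreme mice these r were 0.63, 0.65 and 0.33. It fell as neuronal (r = -0.47) and oligodendrocyte markers (r = -0.42) rose. The part of these lists was not tested either. The lowest Gal value, 14.6 CPM in DRF ZT20 replicate 2, was in the mouse of lowest lateral and posterior hypothalamic markers. Over mice, Th, Nr5a1 and Gpx3 were most like Gal (r = 0.84 to 0.87), and over group means Parvb, Nnat and Minar2 (r = 0.92 to 0.93).

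**Figure D3:**
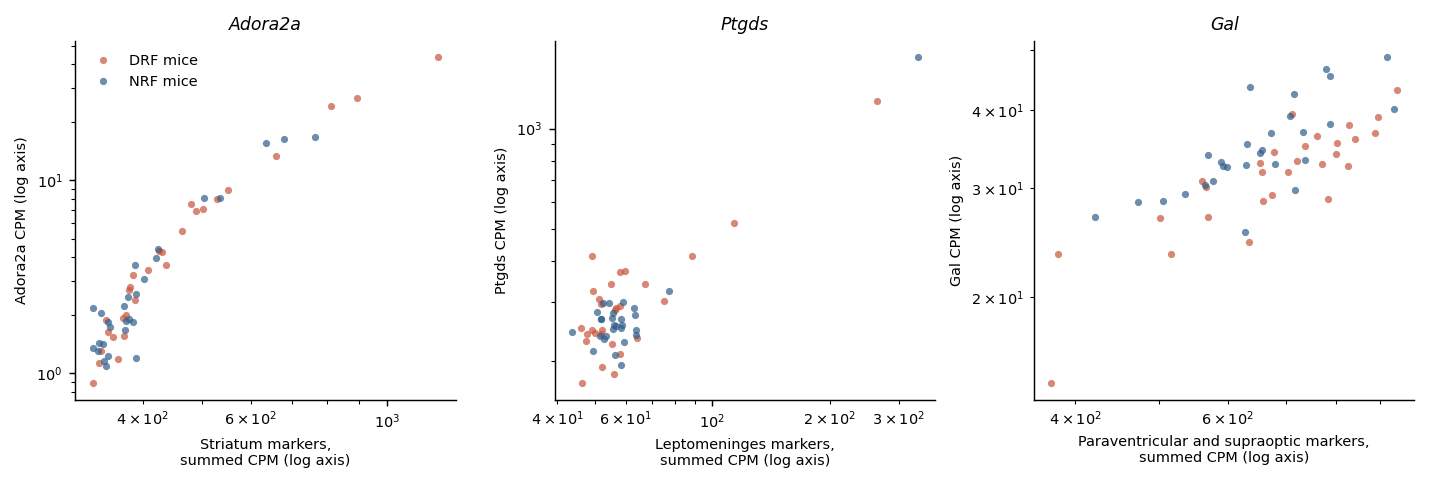
CPM of Adora2a, Ptgds and Gal (vertical, log axes) against the summed CPM of striatal, leptomeningeal and paraventricular and supraoptic markers (horizontal, log axes), 1 point per mouse, DRF in red and NRF in blue. Adora2a rose with its markers over the whole range, whereas for Ptgds 2 mice lay far from the others.

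Of the galanin receptors, Galr2 was low, at 0.49 to 1.56 CPM, and rhythmic in NRF (adjusted p = 0.00026) with a peak at ZT19.3. In DRF it was high at ZT4 (1.04 to 1.51 CPM) and ZT16 (1.29 to 1.56 CPM), and in NRF 0.70 to 0.88 CPM at ZT4. The difference was 0.38 at ZT4 (adjusted p = 0.015), -0.36 at ZT20 (adjusted p = 0.039) and -0.44 at ZT24 (adjusted p = 0.019), and the rhythm differed between regimens (adjusted p = 0.038), though not without the 4 mice of highest striatal markers (adjusted p = 0.059). At ZT0, the same time of day as ZT24, the Galr2 difference was -0.14 (limma, adjusted p = 0.47) and was not called. Galr1 was rhythmic in NRF (adjusted p = 0.028) and peaked at ZT20.3, a call kept in 5 of 11 alternative settings. Galr3 was called in no comparison.

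Tac1 encodes substance P and neurokinin A. The main tests called it in no comparison, and it ranged from 34.3 to 98.5 CPM over mice. At ZT12 it was 67.1, 46.4, 81.2 and 98.5 CPM in DRF and 40.6, 53.9, 53.3 and 58.2 CPM in NRF, a difference of 0.46 ± 0.18 (adjusted p = 0.17). At ZT16 it was 70.1, 69.8, 66.7 and 47.7 CPM in DRF and 54.9, 67.0, 34.3 and 41.4 CPM in NRF, a difference of 0.39 ± 0.18 (adjusted p = 0.12). The groups overlapped at both times. The 2 highest mice of ZT12 were the 2 DRF mice of highest striatal markers, and without the 4 mice of highest striatal markers the ZT12 difference was 0.13 ± 0.21 (adjusted p = 0.95). Without replicate 2 of every group, in contrast, Tac1 was called higher in DRF at ZT12 (0.69, adjusted p = 0.025), at ZT16 (0.50, adjusted p = 0.041) and in mean level (0.25, adjusted p = 0.015). Without replicate 1, 3 or 4 it was called at neither time. The ZT12 and mean level calls came in no other setting. It was also called at ZT16 with trends in length, GC and expression removed. Tac1 fell as thalamic markers rose across mice (r = -0.66, rho = -0.63, permutation p = 1e-05 for each, adjusted p = 0.00013 and 0.00016), with r of -0.61 without the 2 most extreme mice, -0.63 in DRF and -0.67 in NRF. The 4 thalamic markers summed to 316 to 543 CPM in DRF and 342 to 686 CPM in NRF. Of its receptors, Tacr1 was not called rhythmic in NRF by the combined test (adjusted p = 0.21) but passed with the 24-h cosine (adjusted p = 0.042), and Tacr3 differed at ZT16 with the libraries that stood apart (-0.30, adjusted p = 0.021) but not without them (-0.09, adjusted p = 0.81). Rgs12, Mthfd1 and Ngef were most like Tac1 over group means (r = 0.80 to 0.83), and Syt6, Pdyn and Btg1 over mice (r = 0.75 to 0.87).

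Ptgds encodes the prostaglandin D2 synthase of the brain lining. It was 171 to 519 CPM in all but 2 mice, with 1211 CPM in DRF ZT0 replicate 3 and 1643 CPM in NRF ZT20 replicate 4. These were the 2 mice of highest leptomeningeal markers. Over all 56 mice r with these 6 markers was 0.88 (permutation p = 1e-05, adjusted p = 0.00013), but rho was 0.35 (permutation p = 0.0078, adjusted p = 0.036) and r without the 2 mice was 0.53. It was called in no comparison, with a difference over the day of 0.10 ± 0.14 in all mice and 0.10 ± 0.08 without those 2 mice and DRF ZT20 replicate 2. Over mice, Fmod, Slc6a20a and Slc6a13 were most like it (r = 0.94 to 0.95), and over group means Col1a2, Serping1 and Spp1 (r = 0.83 to 0.85). Col1a2 and Slc6a13 are in the marker list.

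Of the other prostaglandin genes, Hpgd, which inactivates prostaglandins, was called most firmly. Its rhythm passed in NRF (adjusted p = 0.00011), where it peaked at ZT18.3, and the rhythm differed between regimens (limma, adjusted p = 0.00043, and 0.0012 without the libraries that stood apart). The DRF cosine peaked at ZT5.7. At ZT16 it was called lower in DRF (-0.38, adjusted p = 0.0092), but not without those libraries (-0.13, adjusted p = 0.69). Abcc4 and Cbr1 were also called rhythmic in NRF, calls kept in 3 of 11 alternative settings each. The receptor Ptgdr was low, at 0.45 to 1.84 CPM, and it and the other synthase Hpgds were called in no comparison.

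**Figure D4:**
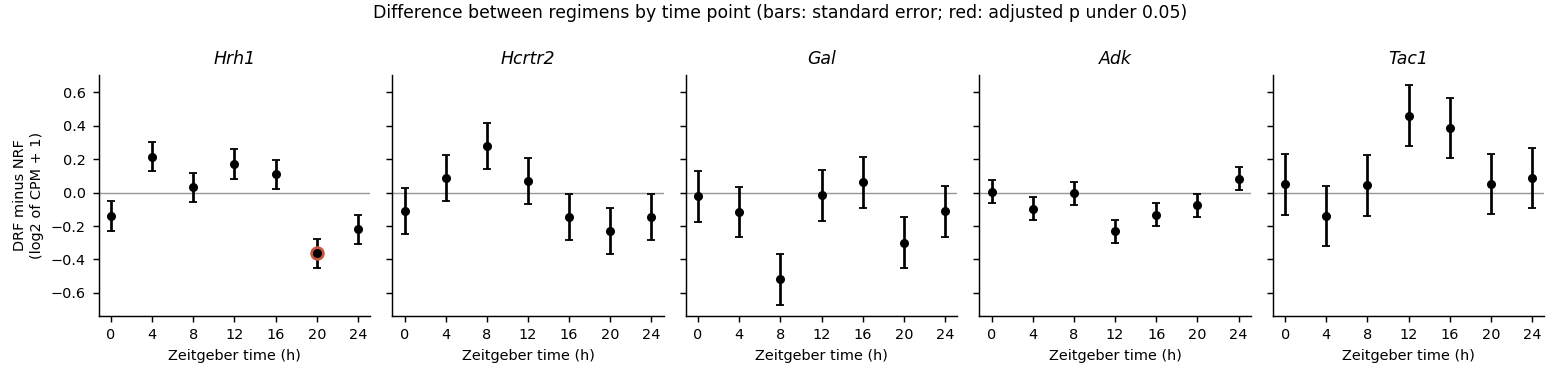
Difference between regimens (DRF minus NRF, log2 of CPM + 1) by zeitgeber time for 5 members, with standard errors from limma (n = 4 mice per group); red marks an adjusted p under 0.05. Hrh1 at ZT20 is the only such point, at -0.36, and its value at ZT4 lay above 0, at 0.22.

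Mean level over the day was compared to ask whether meal timing shifts a transcript as a whole. With all mice 0 of the 10 members were called by limma, against 10.5% of all transcripts, and Gal and Adk, both lower in DRF, were the 2 with an unadjusted p-value under 0.05. Without replicate 2 of every group 3 members were called, Tac1 (0.25, adjusted p = 0.015), Adora2a (0.85, adjusted p = 0.024) and Adk (-0.09, adjusted p = 0.025). That setting called 2346 of the 16053 transcripts, the most of any setting, against 1687 with all mice. Tac1 and Adora2a were called in mean level in no other setting. With all mice the log2 difference lay between -0.15 and 0.44, and 7 of the 10 members had a lower mean in DRF, against 8320 of the 16053 transcripts tested. Spread between mice was larger in DRF for 9 of the 10 members, and for 79.5% of all transcripts. Among the 41 other pathway genes tested, 8 were rhythmic in NRF (27.8% of all transcripts), 0 in DRF (4 at an unadjusted p-value under 0.05), 3 differed in rhythm (11% of all) and 4 in mean level (10.5% of all), each lower in DRF. Of their 287 comparisons at single time points 13 were called, where 4.52% of the comparisons over all transcripts were called. Of those 13, 6 were at ZT16, and 0 of these 6 passed without the 2 libraries that stood apart. Over all transcripts, calls at ZT16 fell from 3239 to 33 without them. Only 2 DRF mice then remain at ZT16, so the test can miss differences that are still there.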

How the data were processed

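RNA-seq of poly(A) RNA from 56 mice was analysed. Reads were aligned and quantified by the authors with HISAT2, Bowtie2 and RSEM on the mouse genome, and scaled by edgeR's TMM. The deposited values, named TPM, are treated as a score: in each mouse they fit a constant times log2(1 + reads / constant) divided by gene length. They were therefore turned back into reads and CPM. Of 17323 genes with a length, 15074 had one that gave whole reads (within 0.05 of a read, in at least 90% of mice) and 2249, Adora1 among them, used the GENCODE exon union, for which the scale may be wrong by a constant; 241 had none. The other 9 members gave whole reads in 100% of mice. Depth was 29591265 to 34493348 normalised reads per mouse, and no count model was run on the recovered reads.

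Transcripts with a deposited value of at least 1 in 80% of mice were kept, 16245 in all. Rhythm was tested on deposited values by JTK_CYCLE and the Lomb-Scargle periodogram (periods 20 to 28 h, p-values combined by Fisher's method, Benjamini-Hochberg adjustment), reimplemented in Python 3.11.15 with numpy 2.4.6 and scipy 1.17.1. Differences were tested on log2(CPM + 1) by limma 3.58.1 in R 4.3.3 with 14 groups, or with 24-h cosine terms for the rhythm, over 16053 transcripts. A pseudocount of 1 understates changes of low transcripts. Marker correlations used 100000 permutations. The scripts were tested on simulated data. Samples were labelled as separate mice; 84 pairs within groups differed by far more than counting noise (chi-square per gene 12.0 to 385). Same-numbered mice did not deviate together (median correlations -0.012 to 0.054), so the numbers were not taken as pairs. Named genes are all 10 members, the pathway genes called in a comparison or partnering a member, and the 3 transcripts most like each member by each measure (of 13903 searched). Members and lists were chosen with earlier results of these data known.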

Additional observations from a re-analysis of the deposited data

Results flagged for a closer look

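Among 140 groups of 4 mice, 1 for each member, regimen and time point, 8 held a mouse whose gap to its nearest neighbour exceeded Dixon's critical share of the group's range; chance gives about 1 in 20 groups. Ptgds was high in DRF ZT0 replicate 3 (1211 CPM) and in NRF ZT20 replicate 4 (1643 CPM), the mice of highest leptomeningeal markers. Gal was low in NRF ZT16 replicate 3 (25.5 CPM). Tac1 was low in DRF ZT16 replicate 4 (47.7 CPM), one of the libraries of unusual GC trend, and high in NRF ZT20 replicate 4 (62.0 CPM). Hcrtr1 was high in NRF ZT0 replicate 4 (8.54 CPM) and low in NRF ZT4 replicate 3 (7.03 CPM). Adk was low in DRF ZT0 replicate 1 (51.8 CPM).

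The rhythm differed between regimens by limma for Hrh1 (adjusted p = 0.035) and, among the other pathway genes, for Galr2 (adjusted p = 0.038), Ada (adjusted p = 0.0099) and Hpgd (adjusted p = 0.00043).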

How the results depend on the processing

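Of the 10 members, 4 were rhythmic in NRF, and this count was 0 by the Lomb-Scargle periodogram alone, 2 without ZT24, 2 without ZT0, 2 without ZT16 and 0 to 3 with 1 replicate left out. The count in DRF was 0, 1 with time as a factor, and 0 to 0 with 1 replicate left out. The 1 member whose rhythm differed became 0 without ZT24, 0 without ZT0, 0 without the mice that stood apart in marker sums, 2 without ZT16, 2 without the libraries of unusual GC trend, 2 without the 4 mice of highest striatal markers, 2 with trends in length, GC and expression removed, and 0 to 1 with 1 replicate left out. The count for mean level, 0, became 1 without ZT24 and 0 to 3 with 1 replicate left out. The 1 difference at a single time point became 2 without ZT16, 2 without those libraries, 2 with those trends removed and 0 to 5 with 1 replicate left out. The cause was not tested. Hnmt at ZT16 turned from -0.45 to 0.0055 without the libraries of unusual GC trend. With the replicate number as a block, the cosine called 6 members in NRF and 0 in DRF, and the block gave 1 differing rhythm, 0 mean levels and 1 time point, as without it. Over all transcripts, calls in NRF ranged from 0 (Lomb-Scargle alone) to 7049 (time as a factor) around 4508, in DRF from 0 (Lomb-Scargle alone) to 1595 around 132, for a differing rhythm from 424 (without replicate 3) to 2740 around 1762, for mean level from 387 (without replicate 3) to 2346 around 1687, and over the time points from 332 (without replicate 3) to 5575 around 5080. A shift of peak time was not computed, because 0 members were called in both regimens. Time as a factor and the sets of left-out libraries and mice were chosen after seeing the data. Counting error was small beside the spread between mice, also for Adora2a (0.11 against 1.10 log2 units).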
